A study of Homo sapiens with 4 samples.

Results

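The proteins of the mitochondrial ribosome were studied here as 78 nuclear genes: every protein-coding gene of the count table whose GENCODE symbol begins with MRPL or MRPS followed by a digit. They comprise 49 MRPL genes, named for the large subunit, and 29 MRPS genes, named for the small subunit, out of 65217 gene identifiers in the table. All 78 were present in the table, and all 78 passed the filter on low counts that left 17075 genes for testing, with between 243 and 5232 counts per gene and library. The lowest of these was in MRPS31, which averaged 12.5 ± 0.450 CPM (SD, n = 2) in the brain libraries against 11.4 ± 2.55 CPM (SD, n = 2) in those from spleen, where CPM is the count scaled to a library total of 1000000, so no member was near the limit that a count of 0 allows.

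The cells were SEM, an established human line of B-cell precursor acute lymphoblastic leukaemia with the t(4;11) fusion KMT2A-AFF1 (MLL-AF4), which had been transplanted into immunodeficient mice aged 6 to 10 weeks at transplantation. The strain of the mice is not stated in the labels. Cells retrieved from the brain, which the protocol describes as leptomeninges, were compared with cells retrieved from the spleen, asking how leukaemic blasts in the central nervous system differ from those in a peripheral site. The same line was studied at both sites, and the labels name no drug treatment. There were 2 libraries per site, from 2 independent occasions, and each pooled the RNA of 5 mice, so mouse-to-mouse variation is not visible and p-values measure the spread between 2 pools.

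The mitochondrial ribosome translates the few messages that the mitochondrial genome encodes, all of them subunits of the respiratory chain and the ATP synthase. Its ribosomal RNAs are transcribed from mitochondrial DNA, whereas every one of its proteins is encoded in the nucleus, made in the cytosol and imported. Some of the proteins have counterparts in bacterial ribosomes, and others were added during the evolution of mitochondria. The small subunit decodes the message, and the large subunit forms the peptide bond and carries the exit tunnel, which opens towards the inner membrane.

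Gene counts summed to between 26266136 and 36913437 per library, and spleen replicate 2 was the shallowest and stood apart from spleen replicate 1 by base composition, as detailed for the members below. Transcripts assigned to mouse took 1.45% to 2.24% of the estimated counts in brain and 4.31% to 6.32% in spleen. The B-cell precursor markers summed to 4120 and 4685 CPM in brain and 3433 and 3873 CPM in spleen, with all 9 detected. Its genes did not move together: CD34 was 135 and 104 CPM in brain and 337 and 280 CPM in spleen and fell in brain (log2 fold change -1.37 ± 0.18, edgeR adjusted p 0.013; 0.051 with a filter of at least 5 CPM). CD79B was 89.3 and 91.5 CPM in brain and 26.5 and 46.0 CPM in spleen (1.32 ± 0.27, edgeR adjusted p 0.073). Human brain-cell markers summed to at most 2.06 CPM and erythroid markers to at most 0.243 CPM in any library, with SNAP25 at 0. T cell markers summed to 104 to 138 CPM with the sites overlapping, but TRAC alone gave 103 to 138 CPM of this. CD3D and CD2 were at 0, and CD3E, CD3G and CD8A at 0.381 CPM or below. Myeloid markers (FCGR3A and S100A8 at 0) summed to 35.15 and 27.99 CPM in brain and 37.37 and 35.35 CPM in spleen, so the sites nearly met. CSF1R gave most of this, with 30.3 and 22.9 CPM in brain and 29.0 and 26.2 CPM in spleen, which overlap. MPO was 2.00 and 2.37 CPM in brain and 4.43 and 5.54 CPM in spleen. LYZ was 2.60 and 2.61 CPM in brain and 3.85 and 3.44 CPM in spleen. The 6 leptomeningeal and endothelial markers summed to 75.3 and 52.0 CPM in brain and to 34.3 and 33.6 CPM in spleen, of which PECAM1 alone gave 72.4 and 49.7 CPM in brain and 33.4 and 29.9 CPM in spleen. COL1A1 was 1.92 and 1.49 CPM in brain and 0.364 and 0.831 CPM in spleen (log2 fold change 1.55 ± 0.45, edgeR adjusted p 0.118). CDH5 was 0.622 and 0.761 CPM in brain and 0.364 and 2.77 CPM in spleen, which overlap. COL1A2, DCN and PDGFRA had at most 8 counts in any library. The part of these marker differences in the results on the ribosome was not tested.

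Most members had lower mRNA levels in the brain libraries than in the spleen libraries, but no single member passed the test. Summed over all 78 genes, brain replicates 1 and 2 held 3467 and 3332 CPM, and spleen replicates 1 and 2 held 4173 and 4611 CPM. Both brain sums lay below both spleen sums, with a log2 ratio of -0.37. An exact two-sided permutation test gave p = 0.33, the smallest that 2 libraries against 2 allow. Because RNA was taken in bulk, fewer cells with these mRNAs and less of them per cell cannot be told apart.

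By edgeR's quasi-likelihood test, 0 of the 49 MRPL genes and 0 of the 29 MRPS genes had an adjusted p under 0.05, against 2.02% of all genes tested (0.387% called lower). Without adjustment, 46 members had p under 0.05, all of them lower in brain (34 MRPL and 12 MRPS), where 9.94% of all genes were lower at that limit. Fold changes were below 0 for 73 of 78 members, against 46.7% of all genes. In 65 of 78 members (83.3%) both brain libraries lay below both spleen libraries, against 26.7% of all genes, and in 1 member, MRPS30, both lay above, against 30.2% of all genes. The median log2 fold change was -0.44 in the MRPL genes and -0.32 in the MRPS genes, and 0.04 over all genes tested. These counts and medians describe the list beside the other genes and are not a test of it, since genes are not independent replicates.

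**Figure D1:**
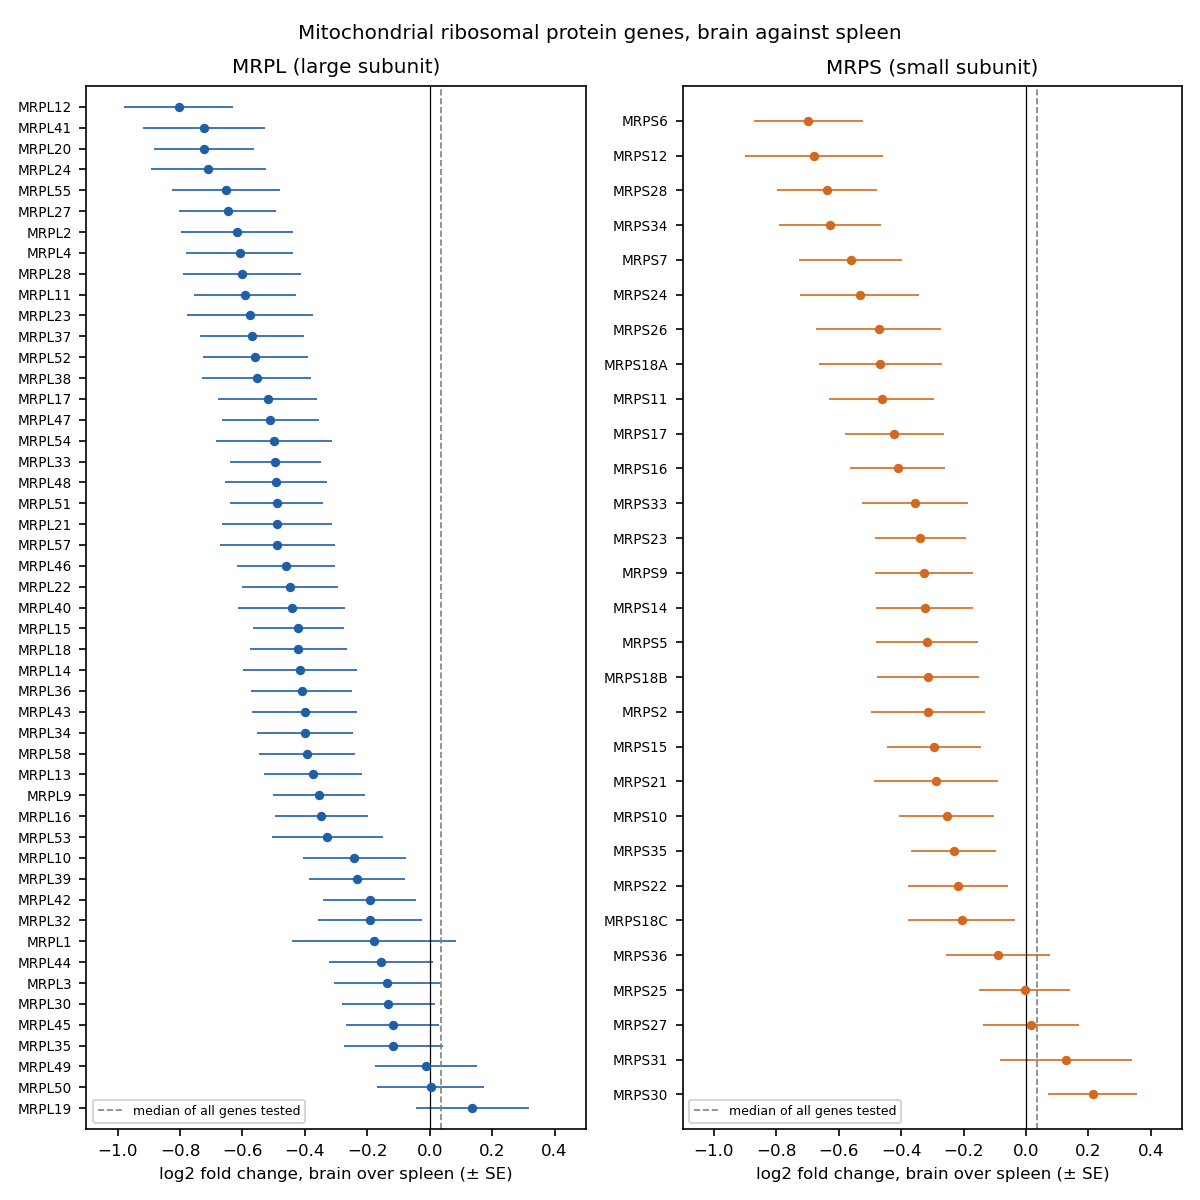
The log2 fold change of brain over spleen (edgeR, point) with its standard error (bar) is plotted for each of the 49 MRPL genes (left) and 29 MRPS genes (right), ordered from lowest to highest, with the median of all genes tested (0.04) as a dashed line. The points run from -0.80 for MRPL12 to 0.21 for MRPS30, and 73 of the 78 are below 0.

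How many members were called depended on the model. With the replicate number, which marks the occasion, as a block in the same edgeR model, 13 members were called lower in brain and none higher, against 3.37% of all genes called lower. DESeq2 called 9 members lower, against 2.46% of all genes. With the trend of each library with GC content and transcript length removed, edgeR called 6 members lower, against 2.22% of all genes, and 15 with the block added, against 6.56%. Without a filter on low counts 21 were called lower, against 2.47% of the 34540 genes of that fit. Of the 17075 genes that pass the filter, 829 were called lower in it. By DESeq2 with the block 1 member was called lower (MRPL12), against 0.65% of all genes. Removing the trend shifted the median of all genes by -0.11, and it changed the calls over all genes from 279 higher and 66 lower to 477 higher and 379 lower. MRPL12, MRPL20, MRPL24, MRPL27 and MRPS28 were called with the block, by DESeq2 and with the trend removed, and MRPL41, MRPL55, MRPS6 and MRPS34 with the block and by DESeq2. No member was called by the main test with RLE size factors (2.1% of all genes), with a filter of at least 5 CPM in a group (0.951%), with protein-coding genes only (1.54%), or without brain replicate 1 (2.25%) or brain replicate 2 (3.09%). Leaving out spleen replicate 1 gave 58 members lower and 1 higher (MRPL19), against 19% of all genes called lower and 18.9% higher, and leaving out spleen replicate 2 gave 39 lower, against 7.63%.

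Among the MRPL genes with a bacterial counterpart, MRPL12 had the lowest fold change of all 78. Its protein forms the flexible stalk to which translation factors bind. MRPL12 (ENSG00000262814, GRCh38 17:81703367-81707517, plus strand) measured 63.5 and 59.7 CPM in brain and 92.3 and 123 CPM in spleen. The spleen libraries were both higher, and replicate 2 the more so. The log2 fold change was -0.80 ± 0.17 (SE), with an adjusted p of 0.067 in edgeR and of 0.0026 with the replicate block. With the GC and length trend removed MRPL12 stood at -0.62, and MRPL47, at -0.64, was lowest. MRPL20 (ENSG00000242485, 1:1401909-1407293, minus strand), whose bacterial counterpart is needed early in assembly of the large subunit, measured 44.3 and 45.8 CPM in brain and 67.2 and 81.3 CPM in spleen. The brain libraries were close together and both below the spleen libraries, with a log2 fold change of -0.72 ± 0.16 and an edgeR adjusted p of 0.068 (0.012 with the block).

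MRPL24, the counterpart of a protein that starts large-subunit assembly in bacteria, measured 32.1 and 29.0 CPM in brain and 43.3 and 56.7 CPM in spleen (log2 fold change -0.71 ± 0.18, edgeR adjusted p 0.097). MRPL27, whose bacterial counterpart lies near the peptidyl transferase centre, measured 29.5 and 28.4 CPM in brain and 43.9 and 46.8 CPM in spleen. For MRPL27 the replicates of each site were close together and the sites apart, with a log2 fold change of -0.65 ± 0.15 and an edgeR adjusted p of 0.081. Next came MRPL2, MRPL4, MRPL28, MRPL11 and MRPL23, with log2 fold changes from -0.62 to -0.58 and no overlap between the sites. MRPL4 and MRPL28 were called lower with the block (edgeR adjusted p 0.039 and 0.045), but not by DESeq2 or with the trend removed alone. MRPL47, at the exit of the peptide tunnel, measured 41.9 and 39.5 CPM in brain and 61.7 and 54.3 CPM in spleen (log2 fold change -0.51 ± 0.16), and it was called with the GC and length trend removed, but not with the block alone or by DESeq2.

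MRPL33 had the highest level of all members per transcript length. It measured 63.6 and 63.2 CPM in brain and 94.8 and 83.8 CPM in spleen, without overlap (log2 fold change -0.49 ± 0.15, edgeR adjusted p 0.124). MRPL1 was split between the spleen libraries: 32.2 and 31.3 CPM in brain, 45.5 CPM in spleen replicate 1 and 26.3 CPM in spleen replicate 2. The MRPL1 spleen values therefore lie on either side of the brain values, and its log2 fold change was -0.18 ± 0.26. MRPL3 (130 and 116 CPM in brain, 153 and 117 CPM in spleen) overlapped too, with a log2 fold change of -0.14 ± 0.17. So did MRPL35 (43.0 and 38.9 CPM in brain, 47.0 and 41.7 CPM in spleen), with a log2 fold change of -0.12 ± 0.16. MRPL19 measured 56.3 and 52.9 CPM in brain and 56.7 and 42.6 CPM in spleen, and its log2 fold change of 0.14 ± 0.18 was the highest among MRPL genes. MRPL19 stood at -0.051 with the GC and length trend removed, and at -0.041 without spleen replicate 2.

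Among the large-subunit proteins found only in mitochondria, MRPL41 and MRPL55 were lowest. MRPL41 (ENSG00000182154, 9:137551879-137552555, plus strand) measured 15.8 and 15.5 CPM in brain and 21.9 and 29.9 CPM in spleen, with a log2 fold change of -0.72 ± 0.20 and an edgeR adjusted p of 0.106 (0.025 with the block). MRPL55 measured 18.8 and 17.4 CPM in brain and 25.7 and 31.2 CPM in spleen (log2 fold change -0.65 ± 0.17, edgeR adjusted p 0.103, 0.042 with the block). Both genes were lower in both brain libraries than in either spleen library. MRPL37 measured 108 in both brain libraries and 138 and 182 in spleen, with a log2 fold change of -0.57 ± 0.17 and an edgeR adjusted p of 0.122 (0.047 with the block). MRPL58, a peptidyl-tRNA hydrolase that became part of the large subunit, had very even replicates: 22.69 and 22.75 CPM in brain and 29.8 and 29.9 CPM in spleen (log2 fold change -0.39 ± 0.16). MRPL45 measured 53.8 and 50.8 CPM in brain and 58.8 and 54.8 CPM in spleen, with a log2 fold change of -0.12 ± 0.15. MRPL49 and MRPL50 had log2 fold changes of -0.013 ± 0.16 and 0.0031 ± 0.17 with the sites overlapping. MRPL50 stood at -0.43 with the GC and length trend removed.

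In the small subunit, MRPS6 and MRPS12 were the lowest of the genes with a bacterial counterpart. MRPS6 (ENSG00000243927, 21:34073224-34143034, plus strand) measured 38.1 and 39.5 CPM in brain and 54.9 and 71.0 CPM in spleen, with no overlap, a log2 fold change of -0.70 ± 0.17 and an edgeR adjusted p of 0.091 (0.020 with the block). MRPS12, whose bacterial counterpart lies at the decoding centre, measured 30.7 and 28.1 CPM in brain and 37.2 and 57.04 CPM in spleen. Spleen replicate 2 was far above the other 3 libraries for MRPS12, and its log2 fold change of -0.68 ± 0.22 had an edgeR adjusted p of 0.151 (0.040 with the block). MRPS7, a protein of the small-subunit head, measured 43.94 and 44.03 CPM in brain and 58.1 and 71.8 CPM in spleen (log2 fold change -0.56 ± 0.16, edgeR adjusted p 0.121). MRPS28 measured 27.8 and 24.4 CPM in brain and 40.4 and 40.7 CPM in spleen, so that the spleen libraries were nearly equal and both higher (log2 fold change -0.64 ± 0.16, edgeR adjusted p 0.092, 0.043 with the block). All 18 MRPS genes of this class had a fold change below 0, against 46.7% of all genes. In 17 of them both brain libraries lay below both spleen libraries, against 26.7% of all genes. MRPS18C was the one that overlapped.

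The 11 MRPS genes found only in mitochondria were more mixed, with a median of -0.22 (log2 fold change) against -0.37 in the 18 with a bacterial counterpart. With the GC and length trend removed, the medians lay closer together, at -0.31 in the 11 genes and -0.37 in the 18. The median GC content was 43.2% in the 11 genes and 47.8% in the 18. The 11 include MRPS30, whose protein is placed in the large subunit, and MRPS36, whose product is not assigned to the ribosome. The 18 include MRPS18A, whose protein is also placed in the large subunit. The difference between these classes was not tested. MRPS34 (ENSG00000074071, 16:1771890-1773150, minus strand) measured 60.2 and 56.7 CPM in brain and 80.1 and 101 CPM in spleen, with a log2 fold change of -0.63 ± 0.16 and an edgeR adjusted p of 0.098 (0.031 with the block). The large-subunit classes had medians of -0.42 (29 genes with a bacterial counterpart) and -0.45 (20 found only in mitochondria).

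MRPS30 had the highest fold change of all 78. MRPS30 (ENSG00000112996, 5:44808947-44820428, plus strand) measured 63.7 and 62.6 CPM in brain and 54.4 and 54.5 CPM in spleen. Both brain libraries of MRPS30 were above both spleen libraries, with a log2 fold change of 0.21 ± 0.14 and an edgeR adjusted p of 0.428. With the GC and length trend removed MRPS30 stood at 0.056, and MRPS31, at 0.063, was highest. Despite its name, the MRPS30 protein is placed in the large subunit by structures of the mammalian ribosome, as is that of MRPS18A (log2 fold change -0.47 ± 0.20). MRPS31 (12.8 and 12.2 CPM in brain, 13.2 and 9.62 CPM in spleen) had a log2 fold change of 0.13 ± 0.21 with overlap. MRPS27, a pentatricopeptide repeat protein, measured 141 and 133 CPM in brain and 122 and 149 CPM in spleen. The brain values of MRPS27 lie between the spleen values, with a log2 fold change of 0.016 ± 0.15, and its sign turned under 7 of the alternatives. MRPS36 overlapped as well, with a log2 fold change of -0.090 ± 0.17. Its product is now known as a subunit of the alpha-ketoglutarate dehydrogenase complex rather than of the ribosome.

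**Figure D2:**
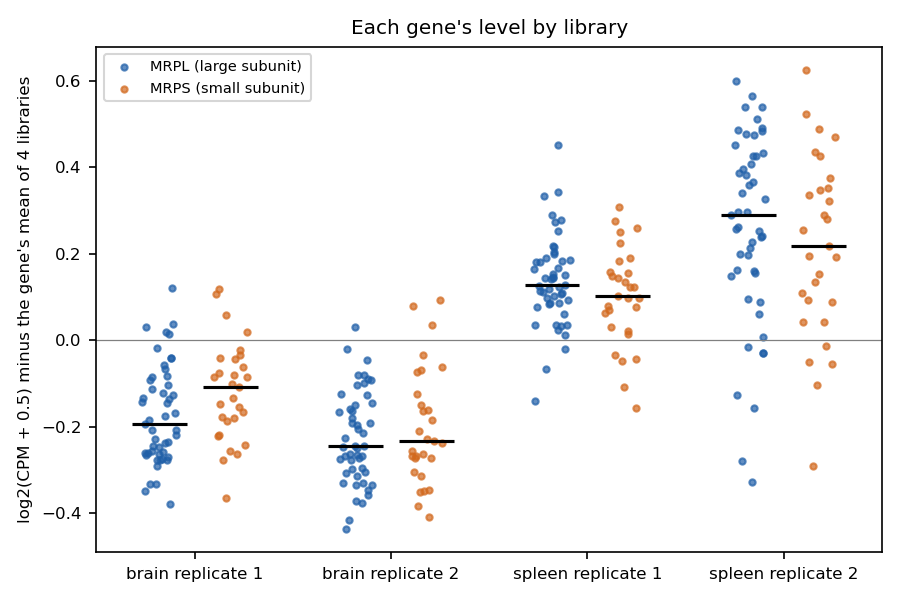
Each point is one gene in one library, as log2(CPM + 0.5) minus that gene's mean over the 4 libraries, for MRPL genes (blue) and MRPS genes (orange), with the median of each set as a black line. The medians are below 0 in both brain libraries and above 0 in both spleen libraries, and the points spread most widely in spleen replicate 2.

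Both occasions showed the lower side in brain for most members. Brain replicate 1 over spleen replicate 1, as a ratio of CPM + 0.5 on the log2 scale, was below 0 in 74 of 78 members, against 49.8% of all genes, and brain replicate 2 over spleen replicate 2 in 72, against 45.9%. In 69 members the ratio was below 0 on both occasions, against 31.5% of all genes. MRPS30 was the member above 0 on both. The median ratio of the MRPL genes was -0.33 on the first occasion and -0.54 on the second, and that of the MRPS genes -0.25 and -0.40, while the medians of all genes were 0.00 and 0.05. MRPL12 stood at -0.53 and -1.04, MRPL20 at -0.60 and -0.82, and MRPS12 at -0.27 and -1.01. MRPL33 went the other way, with -0.57 on the first occasion and -0.41 on the second. Across the 78 members the ratios of the occasions had a Spearman correlation of 0.45, a description over genes that share the same 4 libraries.

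**Figure D3:**
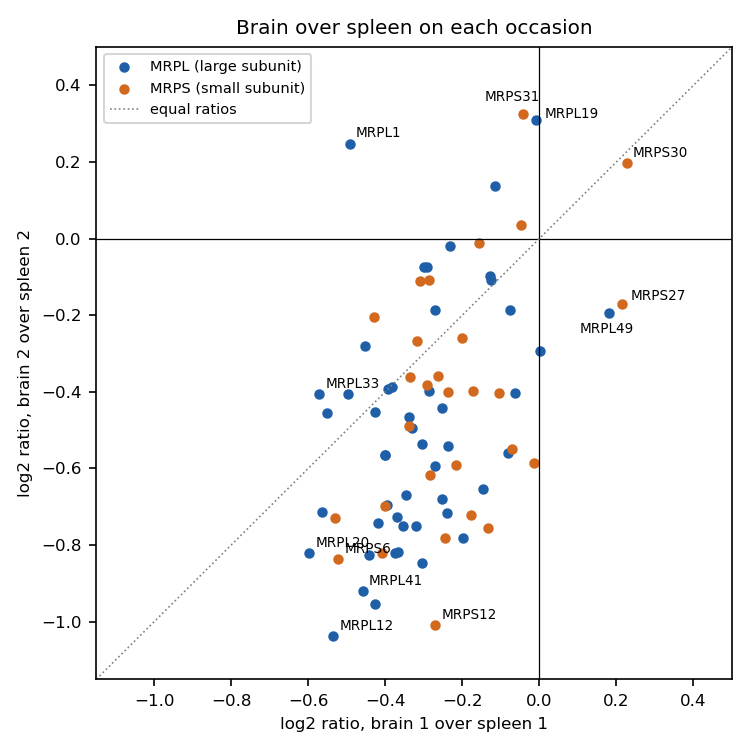
For each member the log2 ratio of brain over spleen on the first occasion (x axis) is plotted against that on the second (y axis), with MRPL genes in blue, MRPS genes in orange and equal ratios as a dotted line. Below 0 on both axes lie 69 of the 78 genes, MRPS30 alone is above 0 on both axes, and MRPL12 and MRPS12 have ratios of -1.04 and -1.01 on the second occasion.

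The size of the difference followed base composition on the second occasion and transcript length on both. Across the 78 members, the log2 fold change had a Spearman correlation of -0.65 with the GC content of the transcripts and of 0.64 with their length. The ratio of the first occasion had one of -0.15 with GC content, and that of the second -0.79. With length the ratio had one of 0.56 on the first occasion and of 0.55 on the second. The difference between the spleen libraries (replicate 2 minus replicate 1) had one of 0.83 with GC content, and that between the brain libraries -0.10. These correlations share the same libraries and are given as descriptions. Members had a median transcript length of 1170 nucleotides and a median GC content of 49.2%, against 2347 nucleotides and 48.1% over all genes tested.

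Split by GC content into 3 sets of 26 genes, the members had medians of -0.21, -0.42 and -0.56 from lowest to highest GC, against 0.18, -0.0007 and -0.10 in other genes of the same GC ranges. On the first occasion the 3 sets stood at -0.27, -0.30 and -0.34, and on the second at -0.19, -0.49 and -0.75. Each set of members thus lay below other genes of its GC range, and the sets differed less from each other on the first occasion than on the second. With the trends of GC content and length removed in every library, the 3 sets stood at -0.34, -0.35 and -0.44, against -0.057, -0.082 and -0.093 in other genes. In that fit 76 of 78 members were below 0, against 58.1% of all genes, and the medians of the MRPL and MRPS genes lay 0.32 and 0.27 below that of all genes, compared with 0.48 and 0.36 before.

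**Figure D4:**
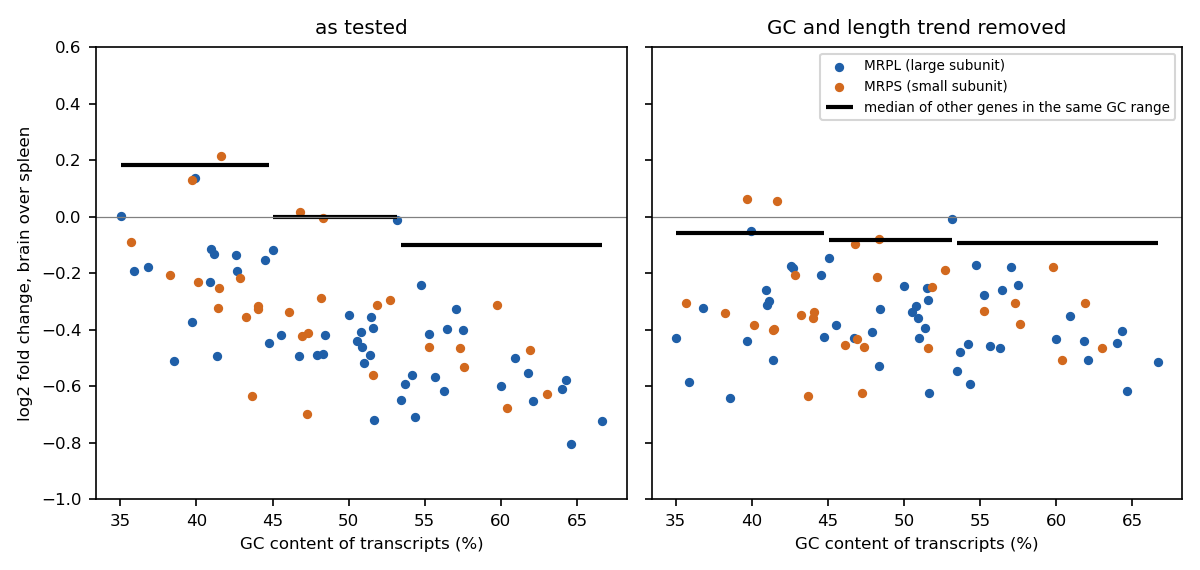
The log2 fold change of each member (y axis) is plotted against the GC content of its transcripts in percent (x axis), as tested (left) and with the GC and length trend removed (right), with MRPL genes in blue, MRPS genes in orange and the median of other genes in the same GC range as a black line. On the left the members fall from a median of -0.21 to -0.56 from the set of lowest to that of highest GC content, and on the right from -0.34 to -0.44.

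The levels of the members were spread over a wide range for proteins of a single particle. Levels are compared between genes per transcript length, as TPM rescaled over human transcripts. The median member had 57.9 and 60.1 TPM in brain and 70.5 and 68.6 TPM in spleen. MRPL33 was highest, with 265 and 284 TPM in brain and 389 and 314 TPM in spleen. MRPL52 followed with 152 and 161 TPM in brain and 199 and 230 TPM in spleen, and MRPL51 with 132 and 141 TPM in brain and 173 and 188 TPM in spleen. The highest MRPS gene was MRPS34, with 113 and 112 TPM in brain and 149 and 168 TPM in spleen. Among MRPS genes MRPS16 followed with 82.6 and 80.5 TPM in brain and 91.3 and 104 TPM in spleen. MRPS15 came next, with 77.1 and 89.9 TPM in brain and 93.8 and 90.3 TPM in spleen. The TPM of MRPL33, MRPL52, MRPL51 and MRPS34 was higher in both spleen libraries than in either brain library. Lowest were MRPS21, with 13.6 and 11.3 TPM in brain and 15.2 and 12.7 TPM in spleen, MRPS31 and MRPL50. Next above them were MRPS17 (16.3 and 17.5 TPM in brain, 20.3 and 19.1 TPM in spleen) and MRPL57 (16.1 and 16.6 TPM in brain, 18.7 and 22.4 TPM in spleen). The highest member exceeded the lowest 19.5 and 25.2 times in brain and 26.0 and 32.2 times in spleen. The order was nearly the same at both sites, with a Spearman correlation of 0.96 between the mean TPM in brain and in spleen across the 78 genes.

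**Figure D5:**
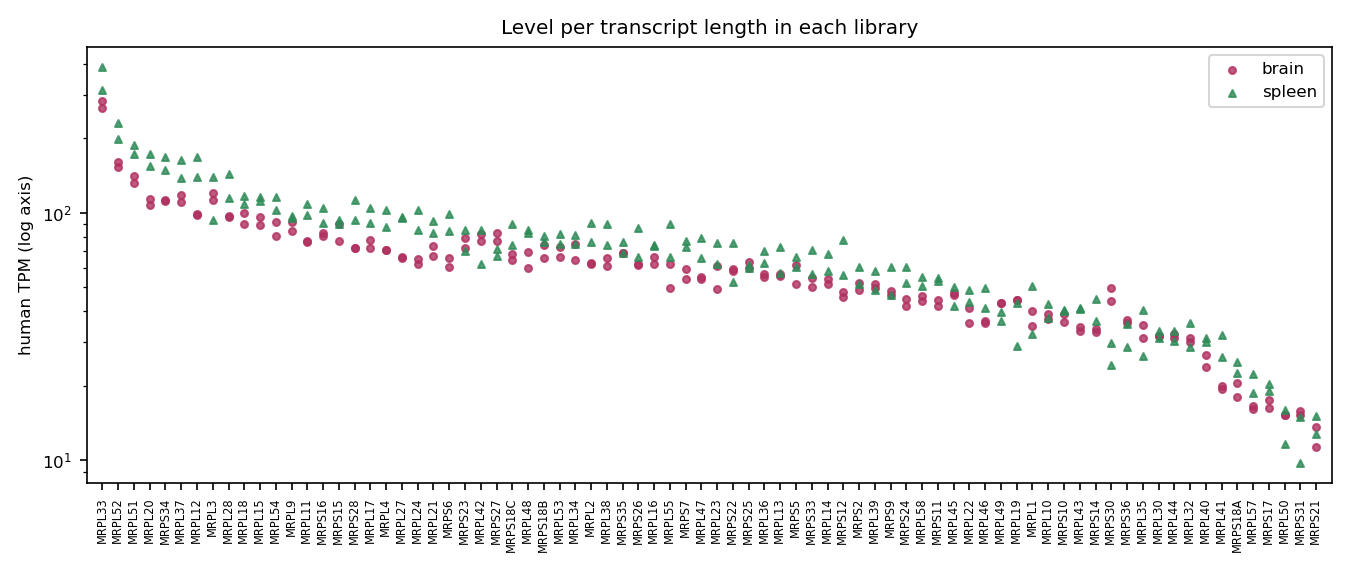
Human TPM of each member (log axis) is plotted in each brain library (circles) and spleen library (triangles), with genes ordered by mean level. MRPL33 is highest at 265 to 389 TPM and MRPS21, MRPS31 and MRPL50 are lowest, and the triangles lie above the circles for most genes.

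In 70 of 78 members the same transcript was the most abundant in all 4 libraries. Over all 78 members the leading transcript, by mean share of the 4 libraries, carried a median of 76.9% of the gene's TPM in brain and 75.8% in spleen. The leading transcript's share moved by under 10 percentage points between the sites in 75 members, with a median shift of 1.71 points. In 8 members the leading transcript was not annotated as protein-coding, among them retained-intron transcripts of MRPS34 and MRPL17. Shifts above 10 points were those of MRPS27, MRPL1 and MRPS30. For MRPS27 the leading transcript took 43.4% and 51.1% in brain and 63.7% and 59.1% in spleen. For MRPS30 it took 68.0% and 61.9% in brain and 77.4% and 74.1% in spleen, so neither gene overlapped. For MRPL1 it took 68.6% and 91.6% in brain and 78.9% and 55.6% in spleen, which overlap. The leading share did not overlap between the sites in 31 of 78 members, a count that was not set beside other genes.

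Some members overlap a gene on the other strand or have pseudogenes named after them. Of the members, 38 overlap an annotated gene on the other strand by the span from gene start to gene end, introns included. Overlap of exons was not measured. The labels do not state a strand option for the counting, so where exons overlap, reads of such pairs may not be separated. In 11 of them such a gene had at least as many counts, over the 4 libraries, as the member: NCAPD2 had 609% of the counts of MRPL51, ACTL6A 263% of those of MRPL47, SYVN1 136% of those of MRPL49 and GGA3 105% of those of MRPS7. MRPL20-AS1 had 41.3% of the counts of MRPL20, and EME2 19.7% of those of MRPS34. These percentages compare total counts, and the share of a member's reads that could be assigned to the wrong gene was not measured. The 78 pseudogenes named after members took between 0.161% and 0.350% of the members' counts. Summing the deposited transcript files by gene gave the table's counts within 1% for all members except MRPL22, MRPS22 and MRPS30, and for MRPS30 the log2 fold change from those sums was 0.42.

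Promoters were examined because most members lay on the same side. RefSeq promoter windows (GRCh38.p14, 250 bases before to 50 after the start) were matched by symbol for 69 of the 78 genes. The letters CCGGAAG, the core of the site for ETS factors such as GABPA, on either strand, were found in 30 of 69 windows (43.5%), against 10.3% of all RefSeq promoter windows and 21.6% of those of the genes tested here. AAGATGGCG, part of the YY1 site, was found in 13 of 69 (18.8%, against 1.75% and 4.42%), GCATGCGC, the core of the NRF1 site, in 6 (8.70%, against 3.05% and 6.26%), and the E-box CACGTG, bound by MYC, in 9 (13.0%, against 7.26% and 12.4%). These are matches of letters, not binding sites. The median log2 fold change was -0.43 in members with the ETS letters and -0.35 in those without, while the tested genes with and without them stood at -0.020 and 0.037. Members with and without the YY1 letters stood at -0.410 and -0.406. For the NRF1 letters these medians were -0.38 and -0.41, and for the E-box -0.36 and -0.42, so members with the letters were the less low. These differences were not tested. The 150 bases before the RefSeq start of MRPL20 (chr1:1407294-1407443, minus strand) and MRPS34 (chr16:1773135-1773284, minus strand), which hold the ETS letters more than once, of MRPL12 (chr17:81703217-81703366, plus strand), the member of lowest fold change, and of MRPS30 (chr5:44808797-44808946, plus strand), the member of highest fold change, are printed 5′ to 3′ to show where these letters lie. Capitals mark CCGGAAG or its reverse complement.
MRPL20: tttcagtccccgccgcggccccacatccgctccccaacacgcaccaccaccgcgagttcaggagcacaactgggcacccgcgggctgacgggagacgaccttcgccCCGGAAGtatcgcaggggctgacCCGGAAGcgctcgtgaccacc
MRPS34: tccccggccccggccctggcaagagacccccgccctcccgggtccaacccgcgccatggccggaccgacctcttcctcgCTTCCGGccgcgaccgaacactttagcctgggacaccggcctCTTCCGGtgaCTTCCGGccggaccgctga
MRPL12: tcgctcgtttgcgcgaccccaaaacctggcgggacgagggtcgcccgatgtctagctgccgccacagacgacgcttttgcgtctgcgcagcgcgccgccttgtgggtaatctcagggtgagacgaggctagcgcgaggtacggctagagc
MRPS30: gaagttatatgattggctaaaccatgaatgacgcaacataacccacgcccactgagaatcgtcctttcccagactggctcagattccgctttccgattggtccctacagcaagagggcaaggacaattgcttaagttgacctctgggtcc

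The MRPL20 and MRPS34 promoters thus hold the ETS letters 2 and 3 times. Those of MRPL12 and MRPS30, at the opposite ends of the list in the main test, do not hold them in these 150 bases. A list of 9 nuclear regulators was examined, which includes genes other than the factors named for these sites. Of these 9, 8 were tested, 0 were called (2.02% of all genes), and their median log2 fold change was -0.12. NRF1 measured 42.0 and 43.2 CPM in brain and 43.3 and 58.7 CPM in spleen (log2 fold change -0.259 ± 0.185, edgeR adjusted p 0.459). MYC measured 361 and 322 CPM in brain and 306 and 320 CPM in spleen (log2 fold change 0.13 ± 0.14). YY1 measured 189 and 197 CPM in brain and 202 and 214 CPM in spleen (-0.11 ± 0.13). GABPA measured 89.9 and 93.6 CPM in brain and 83.2 and 36.3 CPM in spleen, with spleen replicate 2 far below the other 3 libraries. The log2 fold change of GABPA was 0.62 ± 0.44 with an edgeR adjusted p of 0.493, and it was called higher with the block (0.0089), as were 7.48% of all genes. PPARGC1A, a coactivator of mitochondrial biogenesis, was below the filter, at 0.0303 to 0.264 CPM.

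Of the proteins of the mitochondrial ribosome with other names, 4 of 5 had a fold change below 0, against 46.7% of all genes. By the main test 0 of these 5 genes were called (2.02% of all genes). With brain below spleen, 4 had no overlap (26.7% of all genes), and the median log2 fold change was -0.63. GADD45GIP1, a large-subunit protein, measured 42.1 and 43.0 CPM in brain and 62.3 and 86.8 CPM in spleen (-0.81 ± 0.19, edgeR adjusted p 0.077, 0.0046 with the block). AURKAIP1, of the small subunit, measured 64.7 and 64.6 CPM in brain and 90.5 and 129 CPM in spleen (-0.76 ± 0.19, 0.088, 0.0056 with the block). CHCHD1 stood at -0.63 ± 0.17 and was also called lower with the block (0.0496). DAP3 (-0.22 ± 0.14) and PTCD3 (0.038 ± 0.14), both of the small subunit, were called neither by the main test nor with the block.

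Among the assembly factors of this ribosome, 1 gene passed the main test. MALSU1, which binds the immature large subunit and keeps it from joining the small one too early, measured 10.0 and 11.0 CPM in brain and 20.8 and 20.4 CPM in spleen. It fell in brain by 0.97 ± 0.17 on the log2 scale, with an edgeR adjusted p of 0.038. That call was lost with a filter of at least 5 CPM (0.078), without brain replicate 1 (0.263) and without brain replicate 2 (0.115). The 20 large-subunit assembly factors had a median of -0.30 with 1 called, and the 7 small-subunit factors a median of -0.11 with 0 called. Over all genes 2.02% were called, and 0.387% were called lower. Among the small-subunit factors ERAL1, a GTPase that binds the small-subunit RNA, stood at -0.47 ± 0.18, and NOA1 at 0.31 ± 0.15.

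The rest of the translation machinery lay nearer to the median of all genes. Mitochondrial translation factors had a median of 0.023 with 0 of 14 called (2.02% of all genes), and 7 were below 0 (46.7% of all genes). TUFM, the elongation factor that brings aminoacyl-tRNA to the ribosome, had the highest CPM of them, with 270 and 264 CPM in brain and 351 and 485 CPM in spleen (-0.65 ± 0.17, edgeR adjusted p 0.104, 0.019 with the block). OXA1L, the insertase at the exit tunnel, stood at 0.064 ± 0.14. The 22 mitochondrial aminoacyl-tRNA synthetases and related amidotransferase genes had a median of -0.12 with 0 called, and those of highest CPM, KARS1 and IARS2, stood at -0.21 ± 0.13 and -0.14 ± 0.14. The 14 genes of mitochondrial transcription and RNA handling had a median of -0.051 with 0 called. LRPPRC (0.23 ± 0.15) and SLIRP (-0.63 ± 0.15), which bind each other and stabilise mitochondrial mRNAs, were on opposite sides in the main test. With the GC and length trend removed both were below 0, at -0.13 for LRPPRC and -0.59 for SLIRP. SLIRP was called lower with the block (edgeR adjusted p 0.042), as was HSD17B10 (0.034).

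Values of the mRNAs that this ribosome translates were below those of spleen in brain, and 2 of them passed the test. All 13 mitochondrially encoded mRNAs had both brain libraries below both spleen libraries (26.7% of all genes), with a median log2 fold change of -0.99. MT-ND2 (1782 and 1841 CPM in brain, 3088 and 4286 CPM in spleen) fell by 1.03 ± 0.18 on the log2 scale with an edgeR adjusted p of 0.038. That call was lost with a filter of at least 5 CPM (0.086), with protein-coding genes only (0.053) and without brain replicate 1 (0.067). MT-ATP8 (356 and 325 CPM in brain, 585 and 773 CPM in spleen) fell by 0.99 ± 0.17 with an edgeR adjusted p of 0.034. That call was lost with a filter of at least 5 CPM (0.074), with the GC and length trend removed (0.136) and without brain replicate 2 (0.0815). The other 11 did not pass the main test, which called 0.387% of all genes lower. With the block 10 of the 13 were called lower, as were 3.37% of all genes. The mitochondrial ribosomal RNAs MT-RNR1 and MT-RNR2, which poly(A) selection captures only in part, stood at -0.12 ± 0.20 and -0.50 ± 0.25 and overlapped between the sites.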

How the data were processed

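RNA sequencing of 4 libraries (2 brain, 2 spleen) was used. Per the submitters' processing notes, the tools were bcl2fastq 1.8.4, cutadapt 1.5, kallisto 0.42.4 and DESeq2, with the builds GRCh38 and GRCm38. No source used here gives the annotation release. The authors deposited estimated counts per gene, rounded to whole numbers and not normalised, and transcript files with estimated counts and TPM over human and mouse transcripts together. A further table of log2 values was not used, nor was 1 column of the count table that matches no sample.

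Of the identifiers, 56322 (86.4%) were found in GENCODE release 44, which gave symbols and positions. Brain was compared with spleen over all genes by edgeR 4.0.16 (quasi-likelihood, robust, TMM, filterByExpr, R 4.3.3) on the rounded estimated counts, in place of raw counts. P-values were adjusted by Benjamini-Hochberg, and genes under 0.05 were called. CPM uses TMM factors. DESeq2 1.42.0 was an alternative. GC and length trends were removed by offsets fitted with mgcv 1.9.3. Scripts were tested on simulated data. In each library 3 counts correspond to between 0.0813 and 0.114 CPM, counting error only.

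The labels tie each replicate number to a separate occasion of the experiment, and so pair a brain with a spleen library. As a check, the distances of paired libraries from the mean of their site correlated at 0.027 (Pearson) over 17075 genes. The main model has no block.

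The members and lists were chosen with earlier results of these data known. Members were assigned to bacterial or mitochondrial classes by ribosomal nomenclature. Named members were the 5 highest and 5 lowest fold changes per subunit, the 3 highest and 3 lowest by TPM per subunit, and the 5 of smallest p with the block. Of each pathway list up to 4 called genes were named, or the 2 of highest CPM where none was called. Others are named after their values were seen.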

Additional observations from a re-analysis of the deposited data

How the results depend on the processing

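The median fold changes kept their direction under every alternative run, from -0.54 to -0.34 for MRPL and from -0.43 to -0.29 for MRPS genes with 1 library left out, and the summed level from -0.44 to -0.30. The number of genes called did not keep. Over all genes 345 were called, and 2123 without a filter on low counts, 104 at a mean of at least 5 CPM, 201 among protein-coding genes, 915 by DESeq2, 1853 with the replicate block, 856 with the GC and length trend removed, 2257 with that and the block, and 404 to 6807 with 1 library left out. For MRPL and MRPS genes, 0 and 0 became 16 and 5 without the filter, 6 and 3 by DESeq2, 9 and 4 with the replicate block, 1 and 0 by DESeq2 with the block, 5 and 1 with the trend removed, 11 and 4 with the trend removed and the block, and 0 to 39 and 0 to 20 with 1 library left out (a lone library is then assumed to vary like the others). The cause was not tested.

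Members near 0 changed sign. MRPS27 stood at -0.018 with RLE size factors, -0.026 by DESeq2, -0.016 by DESeq2 with the block, -0.097 and -0.086 with the trend removed without and with the block, -0.034 without brain replicate 1 and -0.17 without spleen replicate 1. MRPL50 stood at -0.025, -0.033, -0.028, -0.43, -0.41 and -0.025 under the first 6 of these settings and at -0.13 without spleen replicate 2. MRPL19 stood at -0.051 and -0.052 with the trend removed, without and with the block. MRPS25 stood at 0.027 with the filter at 5 CPM, 0.0070 among protein-coding genes and 0.072 without brain replicate 1. MRPL49 stood at 0.020 with the filter at 5 CPM and 0.031 without brain replicate 2. With 1 library left out, the ranges were -0.069 to 0.33 for MRPS31, -0.17 to 0.18 for MRPS27, -0.041 to 0.31 for MRPL19, -0.093 to 0.072 for MRPS25, -0.13 to 0.11 for MRPL50 and -0.20 to 0.15 for MRPL49, in each case set by the spleen replicates except for the upper end of MRPS25, which came without brain replicate 1.

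The standard error of a member's fold change was between 0.14 and 0.26, and RNA pools of 5 mice show no spread between animals.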
